A study of Homo sapiens with 4 samples.

Results

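The 50 loci described here carry the genes of the matrix metalloproteinases (MMPs), the ADAMTS proteases, their inhibitors (TIMPs) and the lysyl oxidases. A rule on gene names, set with earlier results of these data known, picked them from the 56753 loci of an RNA-seq table, and they comprised 22 MMP, 19 ADAMTS, 4 TIMP and 5 lysyl oxidase loci. The table covers 4 libraries of total RNA from the 786-O cell line, which was derived from a human clear cell renal cell carcinoma. A control vector had been stably introduced into the cells of 2 libraries, and PRDM16, carried by a lentivirus, into those of the other 2. PRDM16 is a zinc finger transcriptional regulator, and the question was how its overexpression changes the transcriptome of this line. All cells thus came from 1 line and had been transduced. Whether the replicates came from separate cultures, or the transduced cells were clones, is not in the labels. Every p-value therefore reflects the spread among these 4 libraries alone, and that spread may be technical.

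MMPs and ADAMTS proteases are secreted or membrane-bound enzymes with a zinc ion in the active site that cut collagens, proteoglycans and other matrix proteins. Most are made as inactive proenzymes, and TIMPs block them by binding the active site. Lysyl oxidases work in the other direction, because they oxidise lysines of collagen and elastin so that the fibres become crosslinked. Several of these genes are studied in kidney cancer for their part in invasion, and LOX is a known target of hypoxia-inducible factors. Cells without VHL, as 786-O cells are, can keep such factors active, and which of them act on LOX here was not tested.

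The table names no unit, and its values were taken as FPKM, a level corrected for transcript length and library size, which allows genes to be compared with each other. PRDM16 itself gave 0.0157 and 0.234 FPKM in control vector libraries and 1226 and 1146 FPKM in PRDM16 libraries. The libraries had between 23138 and 24490 loci above 0, and their relative depth, read from the lowest values, differed by up to 1.39 times. The absolute depth is unknown. Of 7 kidney carcinoma line markers measured alone in a locus, 6 had a mean of at least 1 FPKM, while CA9 stayed below it. Markers of other cell types were low where measured alone in a locus. The sums below leave out loci with several names. The CD68 locus, which also names EIF4A1 and other genes, gave 448 and 362 versus 473 and 477 FPKM (control vector first). The PDGFRA locus, which also names FIP1L1, gave 32.4 and 31.1 versus 38.3 and 39.6 FPKM. That of COL3A1 was at no more than 0.104 FPKM. The summed level of 4 leukocyte markers was 0.418 and 0.428 versus 0.396 and 0.209 FPKM (control vector first), and none had a mean of 1 FPKM. That of 4 fibroblast markers was 4.90 and 3.52 versus 4.24 and 4.78 FPKM, mostly COL1A1 (up to 2.14 FPKM) and LUM (up to 2.32 FPKM). The 5 endothelial markers summed to 1.76 and 2.33 versus 2.56 and 2.86 FPKM, mostly TIE1. The 3 smooth muscle markers summed to 0.390 and 0.325 versus 0.575 and 0.504 FPKM, nearly all CNN1. These sums were thus higher in both PRDM16 libraries. Singly, TIE1, KDR, CDH5 and CNN1 were higher in both, while PECAM1, VWF and DES overlapped. Of all loci with a mean of at least 1 FPKM, 21.1% were higher in both, and 10.6% of lower ones above 0 in some library. CD3E, DCN and MYH11 were at 0 in all 4 libraries, and PTPRC, VWF, CDH5 and DES in 1 to 3 of them. The part of these cell types in the results was not tested. Control vector replicate 2 stood apart, since it was the highest library at 33.9% and the lowest at 38.9% of all tested loci. It was the highest at 7 (30.4%) and the lowest at 4 (17.4%) of the 23 tested single-name loci described below. There, control vector replicate 1 was the highest at 7 and the lowest at 6. PRDM16 replicate 1 was so at 6 and 5, and PRDM16 replicate 2 at 3 and 8.

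Promoter windows from RefSeq (GRCh38.p14, 250 bases before to 50 after the gene start) were available for 30 of the 50 genes, as 34 windows. MMP1, MMP2, MMP3, MMP9, MMP12, MMP13, ADAMTS1 and LOXL2 are among the genes without a window, so their promoters were not searched. Of the 4 stretches below, 3 come from genes of the same MMP cluster, chosen because they share short motifs and yet differed widely in level. The last comes from MMP24, which had the smallest p-value of the members in the main test. Each covers 250 to 11 bases before the start. Capitals mark TGANTCA (the AP-1 type motif, which reads the same on both strands) and TATAAA (the TATA box, searched on both strands).
MMP7 (chr11:102530758-102530997, minus strand): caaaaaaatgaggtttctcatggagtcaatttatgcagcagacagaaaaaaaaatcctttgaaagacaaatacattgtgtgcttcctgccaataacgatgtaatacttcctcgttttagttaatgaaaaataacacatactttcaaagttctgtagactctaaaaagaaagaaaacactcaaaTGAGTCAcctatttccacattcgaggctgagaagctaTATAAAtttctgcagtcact
MMP10 (chr11:102780639-102780878, minus strand): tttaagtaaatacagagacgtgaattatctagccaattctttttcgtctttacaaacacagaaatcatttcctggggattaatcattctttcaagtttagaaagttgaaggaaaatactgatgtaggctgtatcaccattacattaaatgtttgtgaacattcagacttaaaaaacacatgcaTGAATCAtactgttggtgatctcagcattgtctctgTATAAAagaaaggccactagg
MMP20 (chr11:102625343-102625582, minus strand): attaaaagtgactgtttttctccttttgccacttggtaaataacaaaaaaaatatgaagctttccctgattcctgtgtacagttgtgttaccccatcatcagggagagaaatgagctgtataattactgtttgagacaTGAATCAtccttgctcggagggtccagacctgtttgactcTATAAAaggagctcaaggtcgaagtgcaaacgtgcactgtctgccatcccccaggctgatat
MMP24 (chr20:35226440-35226679, plus strand): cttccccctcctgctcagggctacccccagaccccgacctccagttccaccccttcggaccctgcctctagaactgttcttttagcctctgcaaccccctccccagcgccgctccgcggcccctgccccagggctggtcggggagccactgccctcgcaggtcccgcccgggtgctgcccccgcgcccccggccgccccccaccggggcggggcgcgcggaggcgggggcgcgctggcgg

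The TGANTCA match began 67 bases before the start in MMP7, 67 in MMP10 and 112 in MMP20. The TATAAA match began 30, 31 and 72 bases before the start. MMP24 held neither and had a GC content of 77.1%, against 33.3% in the MMP7 stretch. TGANTCA was present in 4 of the 34 windows (11.8%), those of MMP7, MMP10, MMP20 and ADAMTS12, and in 7.71% of all 35116 windows. TATAAA was present in 7 of 34 (20.6%) and in 11.5% of all windows. Of the other windows from the cluster that holds MMP7, MMP10 and MMP20, that of MMP8 held TATAAA without TGANTCA. That of MMP27 held neither. ACGTG, the core of the hypoxia response element, was present in 12 of 34 (35.3%) and in 21.4% of all. These include every LOX window. The LOX windows 122077174-122077473 and 122077125-122077424 overlap, so a shared match can count more than once. The longer CACGTG, which contains ACGTG, was present in 3 of 34 (8.82%) and in 7.26% of all. These matches describe the letters in the window, and they were not tested.

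Of the 50 loci, 47 named only the gene in question and 3 named another gene too, so that MMP2, TIMP2 and LOXL2 were measured only as sums. A mean of at least 1 FPKM over the 4 libraries was reached by 23 of the single-name loci and by these 3. All 23 had a mean of at least 1 FPKM in the control vector and 21 in PRDM16, so ADAMTS15 and TIMP4 passed through their control vector values. The other 24 loci, which include TIMP3, stayed below that level, and 7 of them were listed at 0 in every library (MMP8, MMP11, MMP12, MMP26, MMP27, MMP28 and ADAMTS20). A listed 0 may be a failed estimate, since the 11 loci naming mitochondrially encoded genes were also at 0 throughout.

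**Figure D1:**
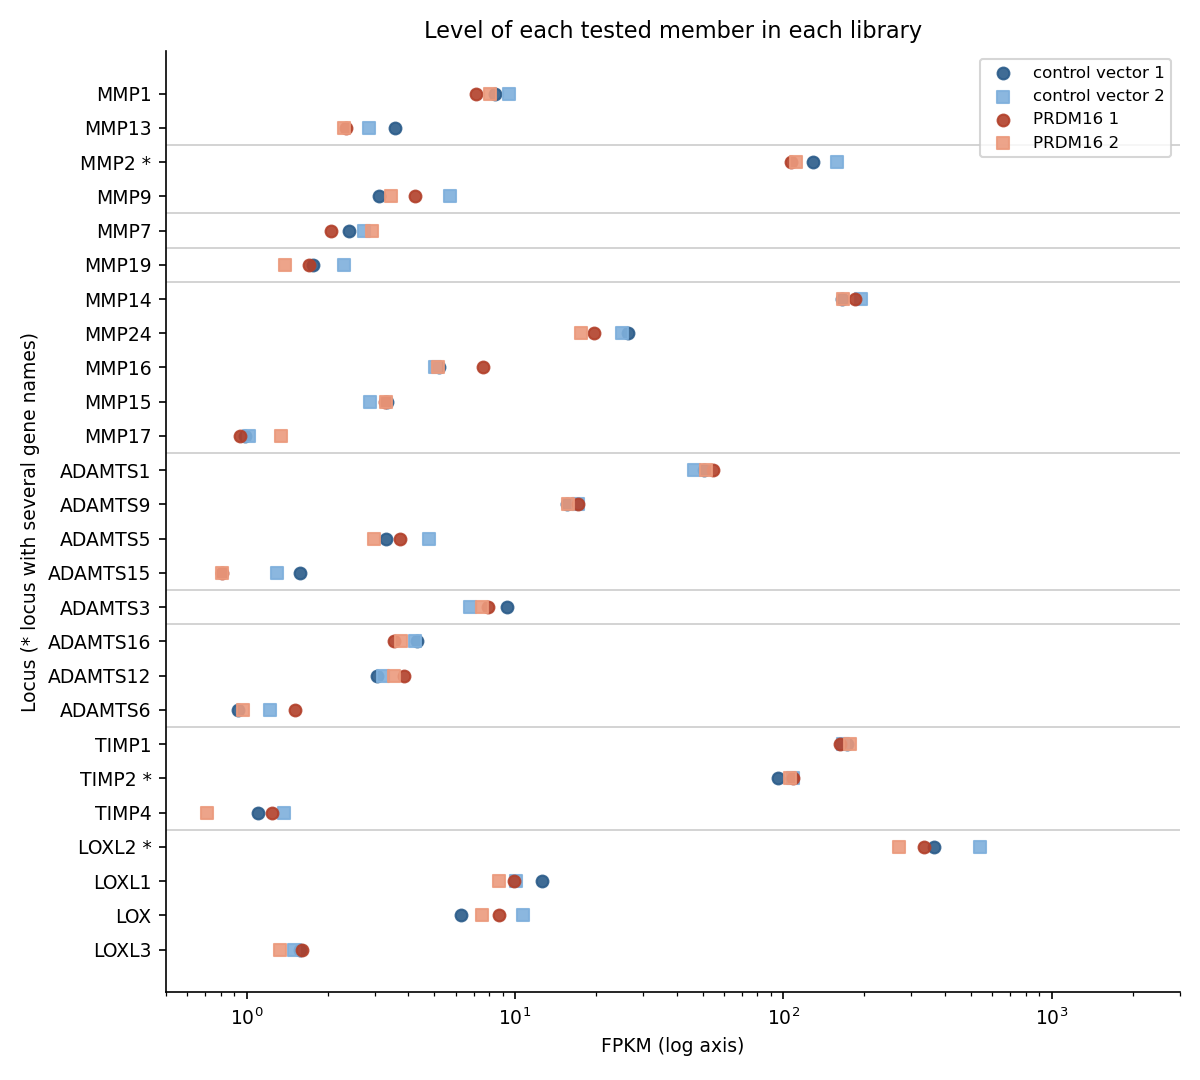
FPKM of the 26 tested loci in each of the 4 libraries, on a log axis, grouped by role, with circles for replicate 1 and squares for replicate 2 of the control vector (blue) and PRDM16 (red). LOXL2, MMP14, TIMP1, MMP2 and TIMP2 lie near or above 100 FPKM in every library, while most ADAMTS loci lie below 20 FPKM.

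None of these loci passed the test. At a limma p adjusted by Benjamini-Hochberg over 13246 loci, 0 of the 23 single-name loci were called, where 0.0226% of all tested loci were. At an unadjusted limma p under 0.05, 1 of the 23 was lower with PRDM16 (MMP24) and 0 were higher, where the background was 3.70% lower and 2.42% higher. The PRDM16 pair lay wholly below the control vector pair at 7 of 23 loci (30.4%), where 20.3% of all loci did, and wholly above at 2 of 23 (8.70%), where 21.1% did. The mean of log2(FPKM + 1) was lower at 16 of 23 loci, where 49.3% of all loci were lower. The median log2 difference was -0.04 against 0.00399 over all loci. Fits that leave out 1 library take the spread from the other group alone and assume that the lone library varies like it. The member counts from these fits cover single-name loci alone, so the MMP2, TIMP2 and LOXL2 loci are not among them. The members lower at an unadjusted p under 0.05 then numbered 4 (ADAMTS15, LOXL1, MMP13 and MMP24) without control vector replicate 2, where 4.29% of all loci were lower. They numbered 2 (MMP9 and MMP24) without control vector replicate 1, beside 12.5% of all loci. Without PRDM16 replicate 1 there was 1, beside 1.36%, and without PRDM16 replicate 2 there were 0, beside 0.838%. In bulk RNA, fewer cells expressing a gene and less RNA per cell cannot be told apart.

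**Figure D2:**
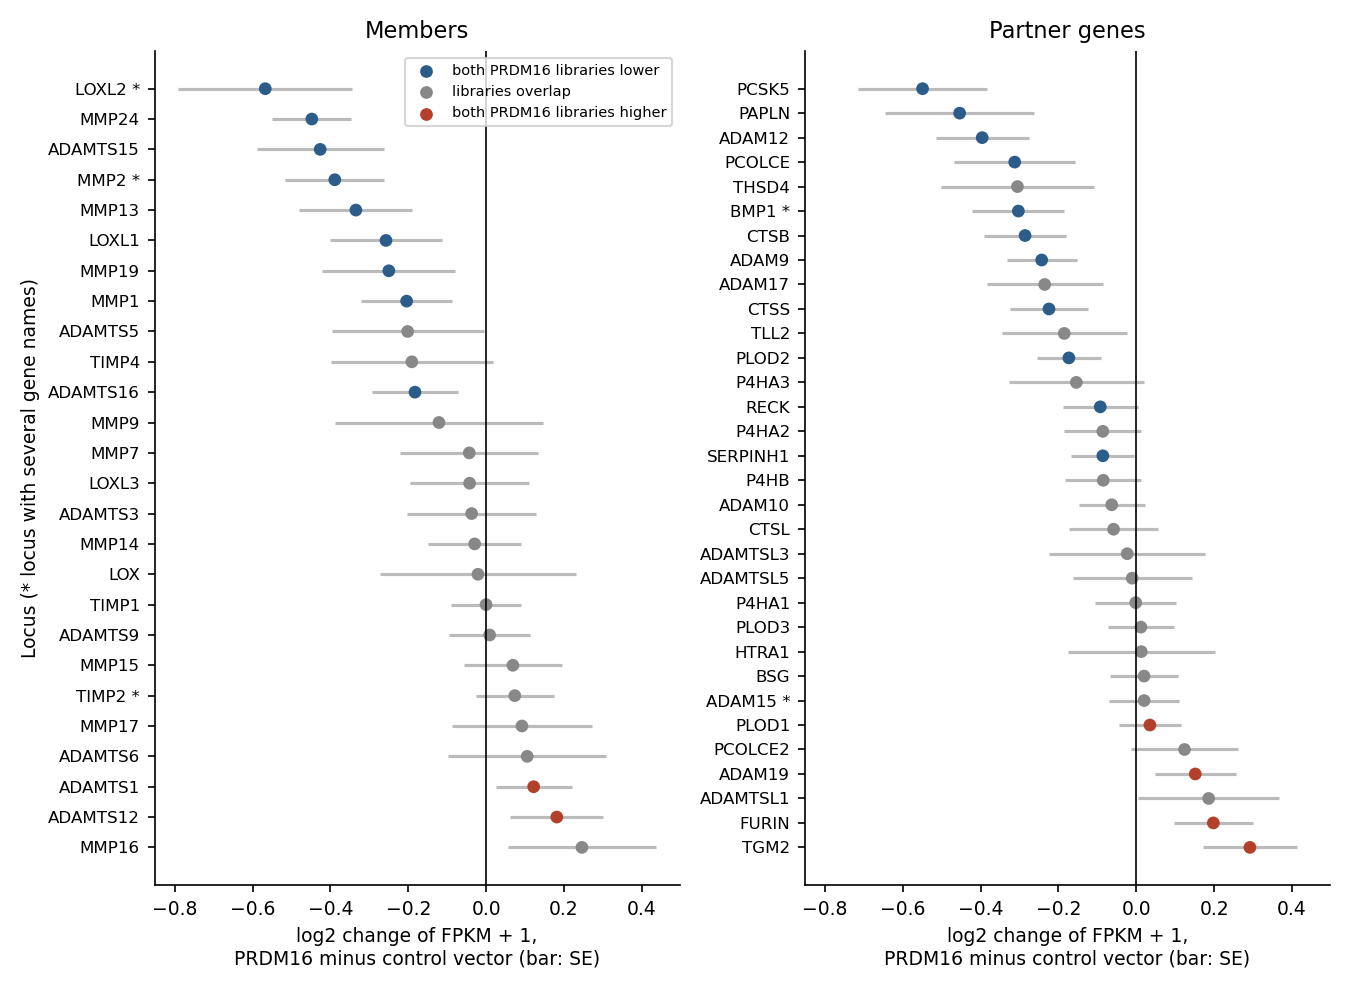
Change of log2(FPKM + 1) from control vector to PRDM16, with its standard error, for the 26 tested member loci (left) and the 32 tested partner loci of the same pathway (right), coloured by whether the groups of 2 libraries overlap. No change passed the test, and the lowest member is the LOXL2 locus at -0.57.

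Membrane-type MMPs, which are anchored at the cell surface, included both the most abundant MMP and the member with the smallest p-value in the main test. MMP14, which activates proMMP2 and cuts fibrillar collagen, gave 166 and 195 FPKM in control vector libraries and 186 and 167 FPKM in PRDM16 libraries. The groups overlapped, and the log2 difference was -0.03 (SE 0.12, limma adjusted p = 0.939). MMP14 spans chromosome 14 from 22836557 to 22849027 on GRCh38.

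MMP24, a membrane-type MMP best known from the nervous system, gave 26.5 and 25.1 FPKM in control vector libraries and 19.6 and 17.6 FPKM in PRDM16 libraries. Both PRDM16 libraries were lower, and the means were 25.8 ± 0.990 against 18.6 ± 1.42 FPKM (SD, n = 2 each), 1.38-fold lower. The log2 difference was -0.45 (SE 0.10), with a limma p of 0.00851 before and 0.689 after adjustment. Leaving out any single library gave values from -0.52 to -0.37, and none of the settings tried brought the adjusted p below 0.139. MMP24 is annotated on chromosome 20 from 35226654 to 35277000, plus strand, and 799 of its exon bases are shared with MMP24OS on the opposite strand. The locus that holds this antisense gene together with EIF6 gave 255 and 242 FPKM in control vector libraries and 270.1 and 277 FPKM in PRDM16 libraries, higher where MMP24 was lower. Strandedness of the libraries is not given in the sources used here, so the reads of the shared bases cannot be assigned.

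The other membrane-type genes were low and overlapped between the groups. MMP16 gave 5.23 and 5.05 FPKM in control vector libraries and 7.62 and 5.15 FPKM in PRDM16 libraries, so its log2 difference of 0.25 rested on PRDM16 replicate 1 and was 0.00238 without it and 0.49 without PRDM16 replicate 2. MMP15 gave 3.32 and 2.88 versus 3.29 and 3.30 FPKM. MMP17 gave 0.984 and 1.02 versus 0.943 and 1.34 FPKM. MMP25, a leukocyte enzyme, was below the filter, at no more than 0.523 FPKM.

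The gelatinases cut denatured collagen and the collagen of basement membranes. The MMP2 locus, which also names RP11-212I21.3, gave 129 and 159 FPKM in control vector libraries and 107 and 112 FPKM in PRDM16 libraries. Both PRDM16 libraries were lower, the means were 144 ± 21.0 against 109 ± 3.41 FPKM (SD, n = 2 each), and the log2 difference was -0.39 (SE 0.13). Its limma p was 0.0317 before and 0.689 after adjustment. The difference became -0.24 on leaving out control vector replicate 2 and -0.54 on leaving out replicate 1. MMP2 spans chromosome 16 from 55389700 to 55506691. MMP9, the gelatinase of leukocytes and many carcinomas, gave 3.12 and 5.70 versus 4.25 and 3.45 FPKM, with the highest value in control vector replicate 2. Its log2 difference was -0.12 (SE 0.27, limma adjusted p = 0.882), and leaving out that library gave 0.23, while leaving out control vector replicate 1 gave -0.47.

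The MMP14 and MMP2 loci held between 84.1% and 85.9% of the summed FPKM of the 22 MMP loci in each library. That sum was 351 and 412 FPKM in control vector libraries and 342 and 325 FPKM in PRDM16 libraries. The summed TIMP level was 269 and 276 versus 272 and 284 FPKM, and the ratio of the MMP to the TIMP sum was 1.30 and 1.49 against 1.26 and 1.14. Both sums include loci with several names. The ratio was lower in each PRDM16 library, and the nearest pair was 1.30 and 1.26. That order depends on the MMP2 locus, which was lower in both PRDM16 libraries, while MMP14 overlapped. The ratio is therefore no separate result, and no share over all loci stands beside it.

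Collagenases open the triple helix of fibrillar collagen, and 2 of the 3 were tested. MMP1, the interstitial collagenase, gave 8.39 and 9.49 FPKM in control vector libraries and 7.18 and 8.07 FPKM in PRDM16 libraries. The groups did not overlap, and the log2 difference was -0.20 (SE 0.12, limma adjusted p = 0.689), or -0.12 without control vector replicate 2 and -0.13 without PRDM16 replicate 1. MMP13, which prefers cartilage collagen, gave 3.56 and 2.85 versus 2.34 and 2.30 FPKM, a 1.38-fold lower mean. The log2 difference was -0.33 (SE 0.15, limma adjusted p = 0.689), or -0.21 without control vector replicate 1.

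These genes lie in a cluster of 9 MMP genes on chromosome 11, from 102520508 to 102955734, all on the minus strand. Only MMP1, MMP7 and MMP13 of the 9 reached a mean of 1 FPKM. MMP7, the matrilysin of epithelia, gave 2.40 and 2.74 FPKM in control vector libraries and 2.05 and 2.92 FPKM in PRDM16 libraries, and its groups overlapped. The stromelysin MMP10, with its TGANTCA and TATAAA matches placed as in MMP7, gave 0.347 and 0.371 versus 0.319 and 0.123 FPKM. MMP20, the enamel protease, held both motifs as well and was at no more than 0.0170 FPKM. The stromelysin MMP3, the next gene after MMP1, gave 0.0608 and 0.0983 versus 0.0726 and 0.189 FPKM. Neighbours within this cluster therefore differed far more in level than the groups did.

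**Figure D3:**
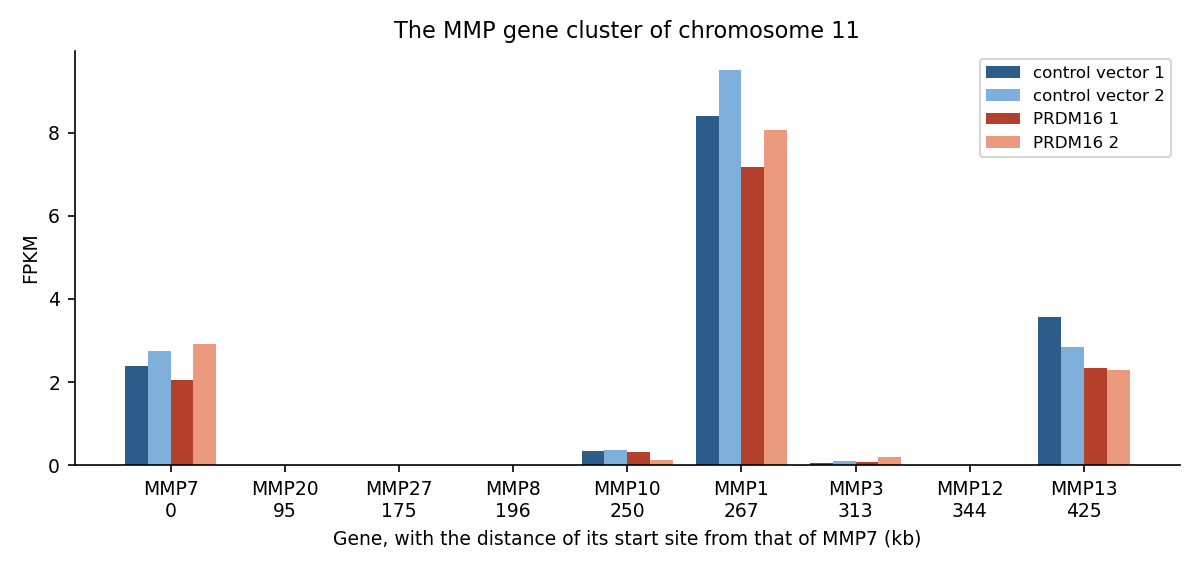
FPKM of the 9 MMP genes of the chromosome 11 cluster in order along the chromosome, 1 bar per library, with the distance of each start site from that of MMP7 in kb under the name. MMP1 is the highest in every library, MMP7 and MMP13 lie between 2.05 and 3.56 FPKM, and the other 6 stay below 0.38 FPKM.

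Among the remaining MMPs, MMP19 gave 1.76 and 2.31 versus 1.71 and 1.39 FPKM, with a log2 difference of -0.25 (SE 0.17, limma adjusted p = 0.690). It became -0.12 without control vector replicate 2, -0.38 without control vector replicate 1 and -0.16 without PRDM16 replicate 2. Of its exon bases, 814 are shared with TMEM198B on the opposite strand, a locus at 1.11 to 1.56 FPKM. The stromelysin MMP11 was listed at 0 in all 4 libraries, as was CHCHD10, which overlaps it. MMP21 was above 0 in 1 library only, at 0.0115 FPKM.

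The ADAMTS proteases carry thrombospondin repeats that bind them to the matrix, and 7 of the 19 are grouped here as enzymes that cut proteoglycans such as aggrecan and versican. ADAMTS1 was by far the most abundant, at 50.8 and 46.4 FPKM in the control vector and at 54.6 and 51.3 FPKM in PRDM16. Both PRDM16 libraries were higher, by a log2 difference of 0.12 (SE 0.10, limma adjusted p = 0.699). It became 0.059 without control vector replicate 2, 0.19 without control vector replicate 1 and 0.078 without PRDM16 replicate 1. ADAMTS9 gave 15.6 and 17.1 versus 17.1 and 15.8 FPKM, and ADAMTS5, the main aggrecanase, gave 3.32 and 4.78 versus 3.73 and 2.98 FPKM. The groups overlapped for both.

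ADAMTS15, another versican-cleaving enzyme, gave 1.58 and 1.30 FPKM in control vector libraries and 0.812 and 0.811 FPKM in PRDM16 libraries. The PRDM16 libraries agreed closely and lay below both control vector libraries, at 1.77-fold lower on the means. The log2 difference was -0.43 (SE 0.16, limma adjusted p = 0.689), or -0.75 at a pseudocount of 0.1, and the locus passed the filter on low values only through the control vector. ADAMTS4 and ADAMTS8 were at no more than 0.0134 FPKM.

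Procollagen N-propeptidases remove the amino-terminal propeptide so that collagen can form fibrils. ADAMTS3 was the only one tested, at 9.32 and 6.77 FPKM in the control vector and at 7.96 and 7.50 FPKM in PRDM16. ADAMTS2 and ADAMTS14 were at no more than 0.430 FPKM. Levels of the remaining ADAMTS genes were low as well. ADAMTS16 gave 4.33 and 4.23 versus 3.54 and 3.77 FPKM, a log2 difference of -0.18 (SE 0.11). ADAMTS12, which can cut the cartilage protein COMP and has the fourth TGANTCA window, gave 3.06 and 3.23 versus 3.87 and 3.54 FPKM, a log2 difference of 0.18 (SE 0.12). The groups did not overlap for ADAMTS16 and ADAMTS12, and limma's adjusted p was 0.689 for each. ADAMTS6 gave 0.924 and 1.22 versus 1.51 and 0.971 FPKM. ADAMTS7, ADAMTS10, ADAMTS13, ADAMTS17 and ADAMTS18 stayed below the filter, between 0.0157 and 1.19 FPKM, and ADAMTS19 was listed at 0 in 3 libraries and at a vanishing value in the other. Summed over the 19 loci, the ADAMTS level was 91.6 and 89.3 versus 95.7 and 89.0 FPKM, with overlapping groups.

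TIMPs differ in range and in where they act. TIMP1, a secreted inhibitor of most MMPs, gave 172 and 166 FPKM in control vector libraries and 162 and 177 FPKM in PRDM16 libraries. Its means were 169 ± 4.22 and 169 ± 10.2 FPKM (SD, n = 2 each), with a log2 difference of -0.000103 (SE 0.09) that did not pass. TIMP1 lies on chromosome X from 47582313 to 47586789. The TIMP2 locus, which also names CEP295NL, gave 95.8 and 109 versus 108 and 106 FPKM, and TIMP2 takes part in the activation of proMMP2 by MMP14. TIMP4 gave 1.10 and 1.38 versus 1.24 and 0.712 FPKM.

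TIMP3, the inhibitor that stays bound to the matrix and also blocks ADAM17 and several ADAMTS enzymes, was below the filter and was not part of the main test. It gave 0.107 and 0.131 FPKM in control vector libraries and 0.472 and 0.563 FPKM in PRDM16 libraries. Both PRDM16 libraries were higher, and the means were 0.119 ± 0.0172 against 0.517 ± 0.0644 FPKM (SD, n = 2 each), 4.34-fold higher at a low level. In the fit without a filter on low values its log2 difference was 0.44 (SE 0.05), with a limma p of 0.00226 before and 0.704 after adjustment. The gene lies on chromosome 22 from 32801701 to 32863043. Of the 24 loci below the filter, 2 lay higher in both PRDM16 libraries (TIMP3 and ADAMTS4) and 5 lay lower (ADAMTS7, ADAMTS10, ADAMTS13, LOXL4 and MMP10). These are 11.8% and 29.4% of the 17 such members above 0 in some library, where 10.6% lay higher and 14.9% lower among all 15089 such loci.

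**Figure D4:**
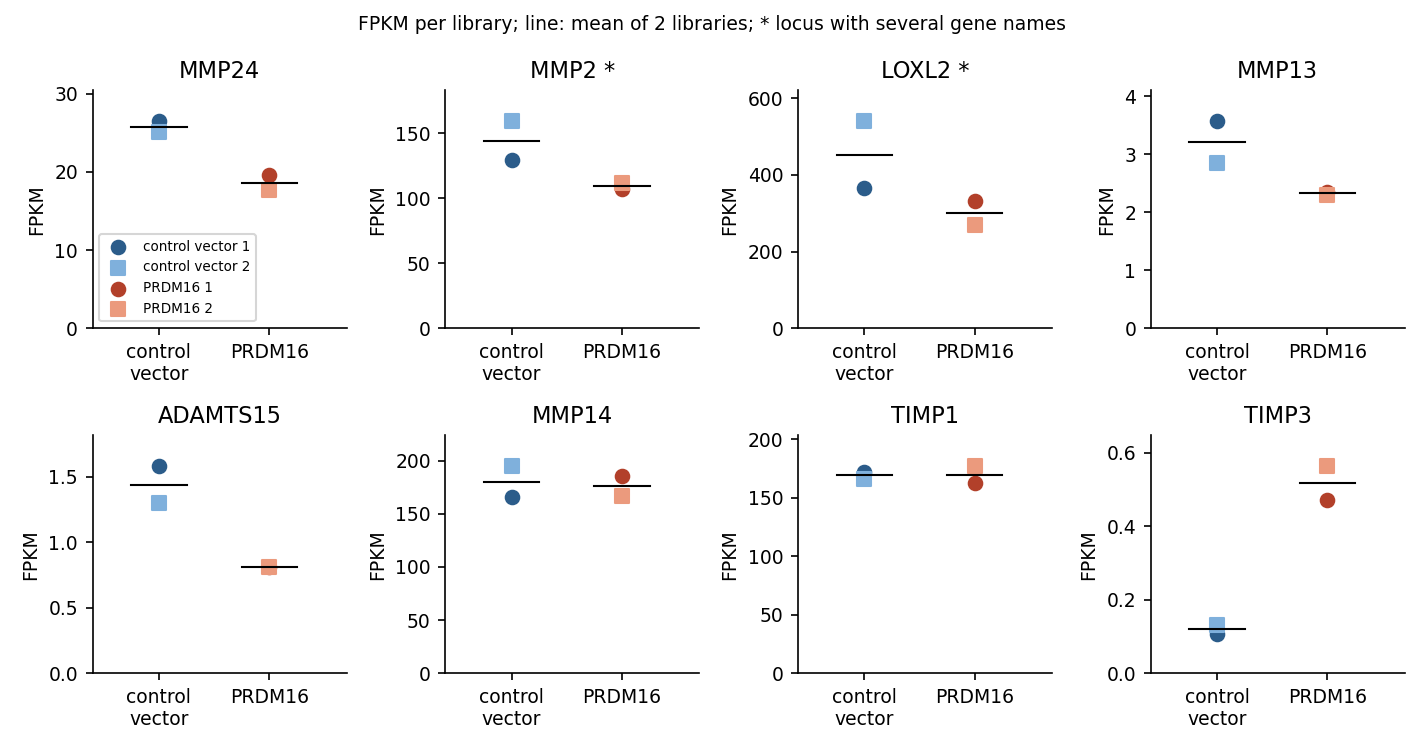
FPKM per library of 8 members on linear axes from 0, with circles for replicate 1, squares for replicate 2 and a line at the mean of each group. MMP24, MMP2, LOXL2, MMP13 and ADAMTS15 have both PRDM16 libraries below both control vector libraries, MMP14 and TIMP1 overlap, and TIMP3 is higher in PRDM16 at under 0.6 FPKM.

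Among lysyl oxidases, the LOXL2 locus was the most abundant of all 50 loci. This locus, which also names ENTPD4, gave 366 and 539 FPKM in control vector libraries and 333 and 269 FPKM in PRDM16 libraries. Both PRDM16 libraries were lower, and the means were 453 ± 123 against 301 ± 45.3 FPKM (SD, n = 2 each), 1.50-fold lower. The log2 difference was -0.57 (SE 0.22, limma adjusted p = 0.689). Leaving out control vector replicate 2, the highest library, gave -0.29, and leaving out replicate 1 gave -0.85. LOXL2, which crosslinks collagen IV of basement membranes, spans chromosome 8 from 23297189 to 23425328, and how much of the sum is ENTPD4 is unknown.

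LOX, the founding member and a hypoxia target, gave 6.27 and 10.7 FPKM in control vector libraries and 8.69 and 7.50 FPKM in PRDM16 libraries. The 2 control vector libraries enclosed both PRDM16 libraries, and the log2 difference was -0.02 (SE 0.25, limma adjusted p = 0.978). Leaving out control vector replicate 2 gave 0.32, and leaving out replicate 1 gave -0.36. LOX shares 138 exon bases with SRFBP1 on the opposite strand, which was at 10.1 to 11.5 FPKM. LOXL1, needed for elastic fibres, gave 12.6 and 10.1 versus 9.87 and 8.73 FPKM, with non-overlapping groups and a log2 difference of -0.26 (SE 0.14, limma adjusted p = 0.689). Leaving out control vector replicate 1 gave -0.11, and leaving out replicate 2 gave -0.41. Its exons share 335 bases with LOXL1-AS1 on the opposite strand, which was at 6.14 to 8.98 FPKM. LOXL3 gave 1.57 and 1.50 versus 1.61 and 1.33 FPKM, a level that its overlap with HTRA2 (625 exon bases on the opposite strand, near 30.2 FPKM) makes uncertain. It also shares 216 exon bases with DOK1 on the opposite strand, which was at 20.2 to 23.8 FPKM. LOXL4 was at no more than 0.0866 FPKM.

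Partner genes of matrix processing outside these families were counted in the same way. Of 40 listed names, 39 loci were found, and 30 single-name loci were tested. By limma, 0 were called after adjustment (0.0226% of all loci), 4 (13.3%) were lower at an unadjusted p under 0.05 (3.70% of all loci) and 0 were higher (2.42% of all loci). The PRDM16 pair lay wholly below the control vector pair at 10 of 30 loci (33.3%) and wholly above at 4 (13.3%), beside the 20.3% and 21.1% of all loci given above. The median log2 difference was -0.09. On leaving out 1 library, the 4 became 8 (control vector replicate 1 out), 2 (control vector replicate 2 out), 1 (PRDM16 replicate 1 out) and 0 (PRDM16 replicate 2 out), beside 12.5%, 4.29%, 1.36% and 0.838% of all loci.

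PCSK5, a proprotein convertase, gave 9.98 and 7.25 FPKM in control vector libraries and 5.47 and 5.54 FPKM in PRDM16 libraries, a log2 difference of -0.55 (SE 0.17, limma adjusted p = 0.689), or -0.34 without control vector replicate 1. FURIN, the convertase that activates membrane-type MMPs, was higher in both PRDM16 libraries, at 24.7 and 22.0 versus 27.6 and 26.2 FPKM, a log2 difference of 0.20, or 0.12 without control vector replicate 2. The cell surface protease ADAM12 gave 19.0 and 20.8 versus 16.1 and 13.7 FPKM, a log2 difference of -0.40 (SE 0.12). ADAM9 gave 86.7 and 88.8 versus 77.0 and 71.1 FPKM, a log2 difference of -0.24 (SE 0.09). The lysosomal protease CTSB gave 218 and 253 versus 196 and 189 FPKM, a log2 difference of -0.29 (SE 0.11), or -0.18 without control vector replicate 2. For ADAM12, ADAM9 and CTSB the groups did not overlap, and limma gave an adjusted p of 0.689 for each.

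Papilin (PAPLN), a matrix protein related to ADAMTS, gave 4.78 and 7.06 FPKM in control vector libraries and 4.18 and 3.79 FPKM in PRDM16 libraries. The BMP1 locus, whose procollagen C-proteinase cleaves the other end of procollagen and also activates LOX, shares its value with CTD-2530N21.5. It gave 26.2 and 30.6 versus 23.8 and 21.8 FPKM. PCOLCE, which enhances that cleavage, gave 7.39 and 9.88 versus 6.67 and 6.72 FPKM. Without control vector replicate 2, the log2 differences of PAPLN, BMP1 and PCOLCE went from -0.45, -0.30 and -0.31 to -0.21, -0.19 and -0.13, and without control vector replicate 1 those of PAPLN and PCOLCE went to -0.69 and -0.50. The MMP inhibitor RECK gave 8.48 and 8.24 versus 7.98 and 7.59 FPKM. The crosslinking transglutaminase TGM2 went the other way, at 294 and 242 versus 320.2 and 333 FPKM, a log2 difference of 0.29 (SE 0.12, limma adjusted p = 0.689), or 0.15 without control vector replicate 2. Of the 8 collagen hydroxylase and chaperone genes, 2 lay lower (PLOD2 and SERPINH1) and 1 higher (PLOD1) in both PRDM16 libraries, beside 20.3% and 21.1% of all loci, and none passed.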

How the data were processed

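RNA-seq values of 4 libraries of 786-O cells, 2 per vector, were read from 1 deposited table. The submitters' processing notes name Cufflinks 2.2.1, Cuffdiff, TopHat2 2.1.0 and Trim Galore, with hg38 as the build. Annotation, library scaling and strandedness: not given in the sources used here. No unit stands in the deposited table. Its values were taken as FPKM made by the authors, because column totals run from 556213 to 574003 with fractional values. A locus with several names (2365 of 56753) has 1 summed value. Library scaling and length correction are thus the authors', and no counting interval can be given. Gene positions came from GENCODE release 29 (GRCh38, the assembly that hg38 refers to) and promoter windows from RefSeq.

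Loci with a mean of at least 1 FPKM were fitted with limma 3.58.1 in R 4.3.3 on log2(FPKM + 1), a scale that shrinks differences of low genes, with a variance trend, a two-sided moderated test and Benjamini-Hochberg adjustment over all 13246 loci (threshold 0.05). A two-sided exact permutation test of 2 against 2 libraries cannot go below p = 0.333. Named with their value in each library were members at 1 FPKM or more. So were partner genes with an unadjusted p under 0.05 or with non-overlapping groups and an absolute log2 change of at least 0.3. The log2 difference, SE and adjusted p are printed for only some of them. TIMP3, the other members below that level, FURIN, RECK, TGM2, PLOD1, PLOD2 and SERPINH1 were named after their values were seen. Members and lists were chosen with earlier results of these data known. Of the leukocyte markers listed, 1 is not reported here. Alternatives covered pseudocounts (0.1, 0.5), filters (none, 5), quantile and median-of-ratios scaling, equal medians, robust variances, dropping the variance trend, a replicate block, loci with several names and leaving out each library. Count-based tools were not run, since the table holds no counts. Python 3.11.15, pandas 2.3.3, numpy 2.4.6 and matplotlib 3.10.9 were used.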

Additional observations from a re-analysis of the deposited data

How the results depend on the processing

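With 2 libraries a group, precision is limited by the spread between the control vector libraries (median absolute log2 difference 0.190, against 0.0979 between the PRDM16 libraries), and the absolute depth is unknown. No member or partner locus passed limma's adjusted threshold under any setting tried, and the lowest adjusted p of a member was 0.120. Of the 26 member loci, 13 kept their direction under each setting that gave them a value. For 7 of these that was every setting (ADAMTS1, LOXL1, LOXL2, MMP1, MMP2, MMP16 and MMP24). The other 6 (MMP13, MMP17, MMP19, ADAMTS12, ADAMTS15 and ADAMTS16) gave none at a mean of at least 5 FPKM, nor did ADAMTS15 without control vector replicate 1 or MMP17 without PRDM16 replicate 2, because they were then below the filter.

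The number of loci called over the whole table was 3. Robust variances gave 5, a pseudocount of 0.1 gave 5, dropping the variance trend gave 6, dropping the filter gave 1, and leaving out 1 library, with the spread then taken from the other group alone, gave from 17 to 37. The share of all loci at an unadjusted limma p under 0.05 was taken in the main fit. With 1 library left out it was taken for lower loci only. Under the other settings the counts that follow have no such share beside them, and they are not read as a result about these genes. Members lower at an unadjusted p under 0.05 numbered 1, counted over single-name loci unless stated. There were 2 without a filter, 3 without a variance trend, 2 with robust variances, 2 with loci of several names included and from 0 to 4 with 1 library left out. Members higher numbered 0, and 1 without a filter. Partner loci lower numbered 4, with 2 at a mean of at least 5 FPKM, 2 without a variance trend and from 0 to 8 with 1 library left out. Partner loci higher numbered 0, with 1 after quantile normalization and from 0 to 2 with 1 library left out.

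With the replicate number as a block, 5 loci were called over the whole table, 1 member (MMP24) and 1 partner locus were lower at an unadjusted p under 0.05, and no member or partner passed after adjustment. The correlation of same-numbered deviations was -0.06, and nothing in the labels says that a number marks a shared batch.

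Member differences that turned sign lay between -0.20 (ADAMTS5) and 0.11 (ADAMTS6) in the fit as reported. After quantile normalization the log2 difference was 0.015 for MMP7, 0.012 for LOXL3 and 0.0050 for LOX, with equal medians it was 0.0015 for TIMP1, and after quantile normalization it was -0.00079 for PLOD1. With 1 library left out, the log2 difference ran from -0.22 to 0.14 for MMP7, from -0.14 to 0.085 for MMP14, from -0.0087 to 0.15 for MMP15, from -0.016 to 0.16 for TIMP2, from -0.13 to 0.042 for LOXL3, from -0.47 to 0.23 for MMP9, from -0.41 to 0.0086 for ADAMTS5, from -0.39 to 0.0033 for TIMP4, from -0.056 to 0.074 for ADAMTS9, from -0.24 to 0.17 for ADAMTS3, from -0.069 to 0.28 for ADAMTS6, from -0.36 to 0.32 for LOX and from -0.061 to 0.061 for TIMP1. The cause was not tested.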
